A study of Mus musculus with 18 samples.

Results

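The cytosolic ribosomal protein genes were examined in the external granule cell layer (EGL) of newborn Ts1Cje and euploid mice. They were taken from the array annotation by symbol, as Rpl or Rps followed by a number with an optional letter or x, with Rplp0, Rplp1, Rplp2 and Rpsa added where listed and with the Rps6k kinases and pseudogenes left out. The rule gave 52 genes of the 17711 with a symbol, 35 of the large and 17 of the small subunit, carried by 77 probes and spread over 18 chromosomes. Each gene was read from its brightest probe. The EGL is the layer of dividing granule cell precursors at the surface of the cerebellum.

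Ts1Cje mice carry an extra copy of a distal segment of mouse chromosome 16 (Mmu16) and lack 1 copy of a short segment of Mmu12. The litters came from Ts1Cje fathers and wild-type mothers on a mixed background. Euploid littermates carry neither change, and all mice were of the strain given as B6EiC3SnF1/J A/a and were taken at P0, the day of birth. Layers of 9 Ts1Cje and 9 euploid mice were dissected and hybridized singly to Illumina Mouse-6 v1.1 arrays. The mice came from 3 litters, with 3 Ts1Cje and 3 euploid pups in each, and the 6 samples of a litter shared 1 slide, so litter and slide cannot be told apart. The source field of 2 euploid samples of litter 2 reads cerebellum, while their tissue field reads external granular layer like that of the others.

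The deposited values are log2 signals normalized by the authors, with a mean of 6.69 on every array, and the arrays correlated at 0.981 to 0.995. Of the 15 granule cell precursor markers listed, 13 were on the array. A mean log2 signal of 7.1 or more was found in 8, among them Zic1 at 12.79 and Ccnd2 at 12.61. Atoh1 (5.69), Mycn (5.52), Gli1 (5.40), Neurod1 (7.06) and Eomes (7.02) lay under it. Of the Purkinje cell markers 4 of 8 (6 on the array) passed that minimum, with Pcp2 at 11.49 and Calb1 at 10.21, while Pcp4 (6.00) and Car8 (5.53) did not. Of the red blood cell markers 3 of 12 (6 on the array), all globins, passed, among them Hba-a1 at 12.32. Hbb-b2 (6.49), Alas2 (6.64) and Slc4a1 (6.24) did not.

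Ribosomal proteins and ribosomal RNA build the small subunit, which reads the mRNA, and the large subunit, which joins amino acids. Most are made in equal numbers per ribosome, and their mRNAs are among the most abundant of growing cells. Many of these mRNAs begin with a 5′ terminal oligopyrimidine (TOP) tract, a C followed by a run of C and U, through which growth signals control their translation. Loss of 1 copy of a ribosomal protein gene reduces growth in many animals, and several such genes are mutated in human Diamond-Blackfan anaemia.

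The start sites annotated by RefSeq (GRCm38.p6) were searched for this tract, since it is what ties the family together at the level of its mRNAs. Of the 52 genes, 41 had an entry, and 10 of these (24.4%) had a start with C followed by at least 4 pyrimidines on the strand of the gene, against 3.01% of the 27025 genes of the table. The 8 of them that passed the signal minimum are shown as 30 bases each, 5′ to 3′ on the strand of the gene, with 15 bases before the annotated start and the pyrimidine run from the start in capitals.
Rpl28 (chr7:4792950-4792979, + strand): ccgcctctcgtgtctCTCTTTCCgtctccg
Rpl35 (chr2:39005117-39005146, - strand): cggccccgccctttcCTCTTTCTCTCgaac
Rpl35a (chr16:33056467-33056496, + strand): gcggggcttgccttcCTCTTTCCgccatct
Rpl38 (chr11:114668565-114668594, + strand): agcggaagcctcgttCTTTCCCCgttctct
Rps15a (chr7:118116133-118116162, - strand): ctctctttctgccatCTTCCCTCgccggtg
Rps18 (chr17:33955651-33955680, - strand): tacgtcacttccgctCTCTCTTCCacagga
Rps21 (chr2:180257364-180257393, + strand): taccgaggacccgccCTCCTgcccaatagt
Rps27 (chr3:90213634-90213663, - strand): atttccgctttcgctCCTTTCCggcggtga
The run was 5 bases in Rps21 and 11 in Rpl35. Rpl28 and Rpl35a shared the same 8-base run, CTCTTTCC. In the 300 bases around the starts (250 before and 50 after), the ETS-type motif ACTTCCGG was found on either strand in 8 of the 41 genes (19.5%, against 4.31% of all genes), and the YY1-type motif AAGATGGC in 5 (12.2%, against 3.19%). An annotated start can differ from the start used in the EGL, and a match is a description of the sequence alone.

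Most ribosomal protein genes gave some of the strongest signals on the array. Of the 52 genes, 44 had a mean log2 signal of 7.1 or more and were tested, and 31 lay among the brightest 1% of the 46632 probes. The median of the 44 mean signals was 13.04, and 12 genes reached 14 or more. Rpl41, which encodes a very short peptide of the large subunit, was the brightest at 14.87 ± 0.13 (log2 signal, SD, n = 18), with 14.70 in the lowest and 15.13 in the highest mouse. Rps29, a zinc-binding protein of the small subunit, followed at 14.62 ± 0.12, then Rps20 at 14.37 ± 0.11, Rps9 at 14.31 ± 0.14 and Rps14 at 14.30 ± 0.12. Rps20, Rps9 and Rps14 lay within 1 SD of one another. A probe's brightness also depends on its sequence, so this order is one of probe signals and not of mRNA amounts.

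**Figure D1:**
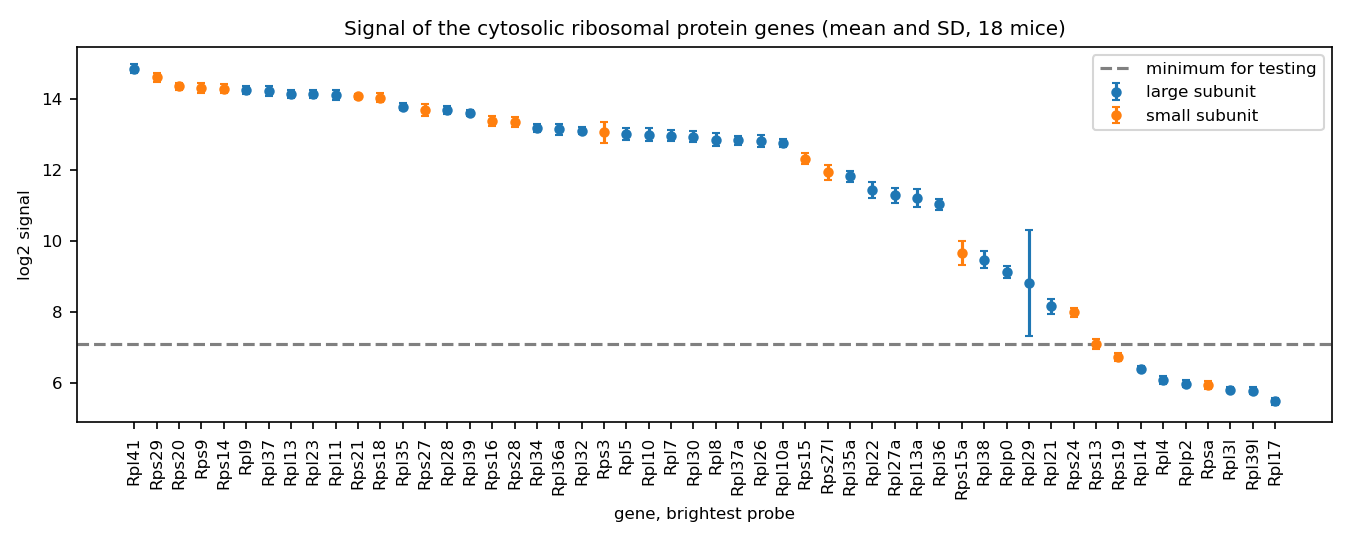
Mean log2 signal of the brightest probe of each of the 52 genes, with the SD over 18 mice as bars; blue marks large-subunit and orange small-subunit genes, and the dashed line is the minimum of 7.1 for testing. The signals fall from 14.87 for Rpl41 to 5.49 for Rpl17, and 8 genes lie under the line.

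The 8 genes under the minimum were Rpl17 (5.49 ± 0.10), Rpl39l (5.78 ± 0.10), Rpl3l (5.82 ± 0.08), Rpsa (5.94 ± 0.12), Rplp2 (5.98 ± 0.09), Rpl4 (6.08 ± 0.13), Rpl14 (6.41 ± 0.08) and Rps19 (6.72 ± 0.11). The median of all probes of an array was 5.95 to 6.05, so several of these probes were no brighter than a typical probe of the array. Rpl3l and Rpl39l are paralogues known for expression in striated muscle and in testis. Rpsa, the laminin receptor and small-subunit protein, Rplp2, an acidic stalk protein, and Rpl4 are general ribosomal proteins, and their probes were dim in all 18 mice. The member just inside the minimum was Rps13, at 7.11 ± 0.14.

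Probes of 1 gene disagreed in level. Of the 17 genes with several probes, 8 had probes more than 2 log2 units apart, from 3.14 in Rps9 to 8.71 in Rps20. The 3 probes of Rpl37 lay between 5.71 and 14.24, those of Rpl23 between 5.97 and 14.15, and the 5 of Rps9 between 11.17 and 14.31. A low value of a single probe therefore did not show that a gene was silent.

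The tested genes varied little from mouse to mouse. The SD over 18 mice had a median of 0.14 on the log2 scale, against 0.18 for all 11503 probes tested, and was under 0.2 in 35 of the 44 genes. It ranged from 0.08 in Rps21 to 0.34 in Rps15a among the genes other than Rpl29, which had an SD of 1.49. The genes also moved together: the correlation of a gene with the mean of the others over the 18 arrays was 0.8 or more in 20 genes, with Rps16 (0.94), Rpl11 (0.93), Rpl23 (0.90) and Rpl13a (0.90) at the top. It was under 0 in 4 genes, Rps13 (-0.42), Rps24 (-0.20), Rps15a (-0.15) and Rpl21 (-0.13), whose mean log2 signals were all under 10. These arrays share slides and one normalization, and after removal of the mean of each genotype and litter the median correlation between 2 genes was 0.31, against 0.47 before. Other probes were not set beside these correlations, so whether they are particular to the family was not tested.

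Litters differed in ribosomal protein signal. Of the 44 genes, 18 (40.9%) differed between the 3 litters at an adjusted p under 0.05 in limma's F test, against 28.3% of all 11503 probes (3260). In all 18 genes the mean of litter 3 was the highest. In litter 3 against litter 1, 18 genes were higher and 0 lower, with Rpl41 and Rpl37a in place of Rpl36 and Rpl37 of the F test, and 15.4% of all probes were higher and 12% lower. In litter 3 against litter 2, 13 were higher and 0 lower (all probes, 11.9% and 2.63%). In litter 2 against litter 1, Rpl29 was higher and no other gene was called (all probes, 1.21% higher and 4.16% lower). The median differences of the 44 genes were 0.16, 0.18 and -0.01 on the log2 scale, beside 0.03, 0.08 and -0.05 for all probes tested.

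The median signal of the 44 genes shows the same order mouse by mouse. It was 12.82 to 13.11 in the 6 mice of litter 1, 12.91 to 13.06 in litter 2 and 13.14 to 13.34 in litter 3. All mice of litter 3 lay above all mice of both other litters. The 44 genes made up 2.75% to 3.10% of the summed linear signal of an array in litter 1, 2.82% to 3.22% in litter 2 and 3.02% to 3.42% in litter 3, and these ranges overlapped.

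**Figure D2:**
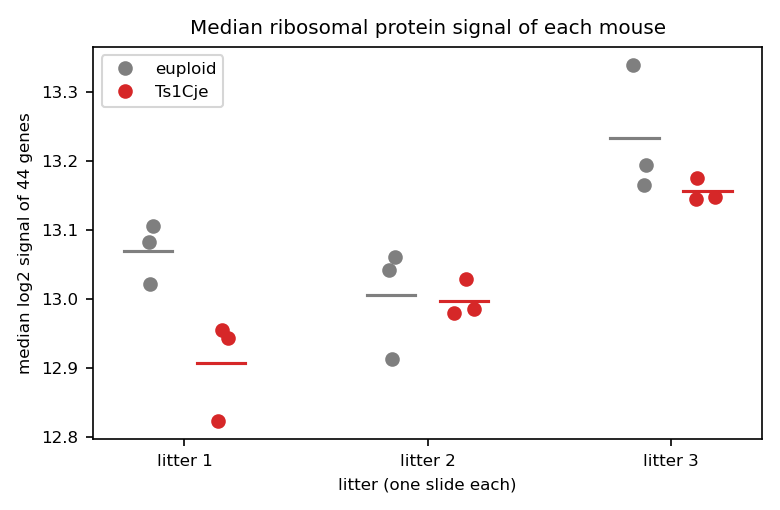
Median log2 signal of the 44 tested ribosomal protein genes in each mouse (points), by litter and genotype (grey, euploid; red, Ts1Cje), with the mean of 3 mice as a line. Litter 3 lies between 13.14 and 13.34, above all mice of litters 1 and 2, and in litter 1 the 3 Ts1Cje mice lie below the 3 euploid mice.

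Of the 18 genes, 13 were among the 29 large-subunit genes tested and 5 among the 15 small-subunit genes tested. Rpl5 binds 5S ribosomal RNA together with Rpl11, and both hold back Mdm2 when they are free of the ribosome. The Rpl5 signal was 12.79 to 13.05 in litter 1 (median 13.00), 12.81 to 13.03 in litter 2 (12.87) and 13.14 to 13.29 in litter 3 (13.21). Litter 3 did not overlap with the others, and the difference from litter 1 was 0.26 ± 0.06 (SE; adjusted p = 0.0044). Rpl11 was at 13.82 to 14.15 in litter 1, at most 14.05 in litter 2 and 14.15 to 14.43 in litter 3. It was higher in litter 3 than in litter 1 by 0.22 ± 0.06 (adjusted p = 0.0123), again without overlap before rounding.

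Rpl8 lies close to the site of peptide bond formation, and Rpl10 is among the last proteins added to the large subunit. Rpl8 was 0.23 ± 0.07 higher in litter 3 than in litter 1 (SE; adjusted p = 0.0227) and 0.34 ± 0.07 higher than in litter 2 (adjusted p = 0.0076). For the X-linked Rpl10 the same differences were 0.25 ± 0.07 (adjusted p = 0.0155) and 0.33 ± 0.07 (adjusted p = 0.0085). For Rpl7 they were 0.27 ± 0.07 (adjusted p = 0.0058) and 0.23 ± 0.07 (adjusted p = 0.0287). In each of these 3 genes all 6 mice of litter 3 lay above all mice of litters 1 and 2. Across the 44 genes, 7 had no overlap between litters 3 and 1 and 12 had none between litters 3 and 2, against 6.71% and 4.05% of all probes.

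Rpl13a, which has a second known role in silencing inflammatory mRNAs in human cells, was 0.35 ± 0.09 higher in litter 3 than in litter 1 (SE; adjusted p = 0.0095), and its ranges of 10.70 to 11.43 and 11.25 to 11.70 overlapped. Its second probe gave 0.39 for the same difference (adjusted p = 8.1e-04). Rpl27a was 0.29 ± 0.08 higher in litter 3 than in litter 1 (adjusted p = 0.0128).

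Of the small-subunit genes, Rps27, Rps27l, Rps16, Rps18 and Rps14 were called. Rps27 and Rps27l encode near-identical zinc-finger proteins, of which Rps27l is known as a target of Trp53. Rps27 was 0.28 ± 0.07 higher in litter 3 than in litter 1 (SE; adjusted p = 0.0060) and Rps27l 0.33 ± 0.10 higher (adjusted p = 0.0169). Rps14, one of the 5 brightest genes, was 0.18 ± 0.06 higher (adjusted p = 0.0294). This was the smallest difference among the genes called in litter 3 against litter 1.

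The other 26 genes did not pass the F test on their brightest probe. They include Rps20 (0.13 ± 0.07 from litter 1 to litter 3, adjusted p = 0.145) and Rpl38, which is needed for translation of Hox mRNAs in mouse embryos (0.15 ± 0.11, adjusted p = 0.353). From litter 1 to litter 3 the difference was above 0 in 38 of the 44 genes and under 0 in 6. These were Rps15a and Rps13 (both -0.20), Rpl22 (-0.19), Rpl21 (-0.13), Rpl34 (-0.09) and Rps24 (-0.04). Rpl22 is a large-subunit protein with a role in lymphocyte development. It lay at 11.61 ± 0.20 in litter 1, 11.32 ± 0.26 in litter 2 and 11.42 ± 0.14 in litter 3 (SD, n = 6 each; F test, adjusted p = 0.126). Of the genes with a TOP start shown above, Rps18 and Rps27 were among those called and Rpl28, Rpl35, Rpl35a, Rpl38, Rps15a and Rps21 were not. The median difference from litter 1 to litter 3 was 0.12 in these 8 genes and 0.17 in the 26 tested genes with another annotated start.

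**Figure D3:**
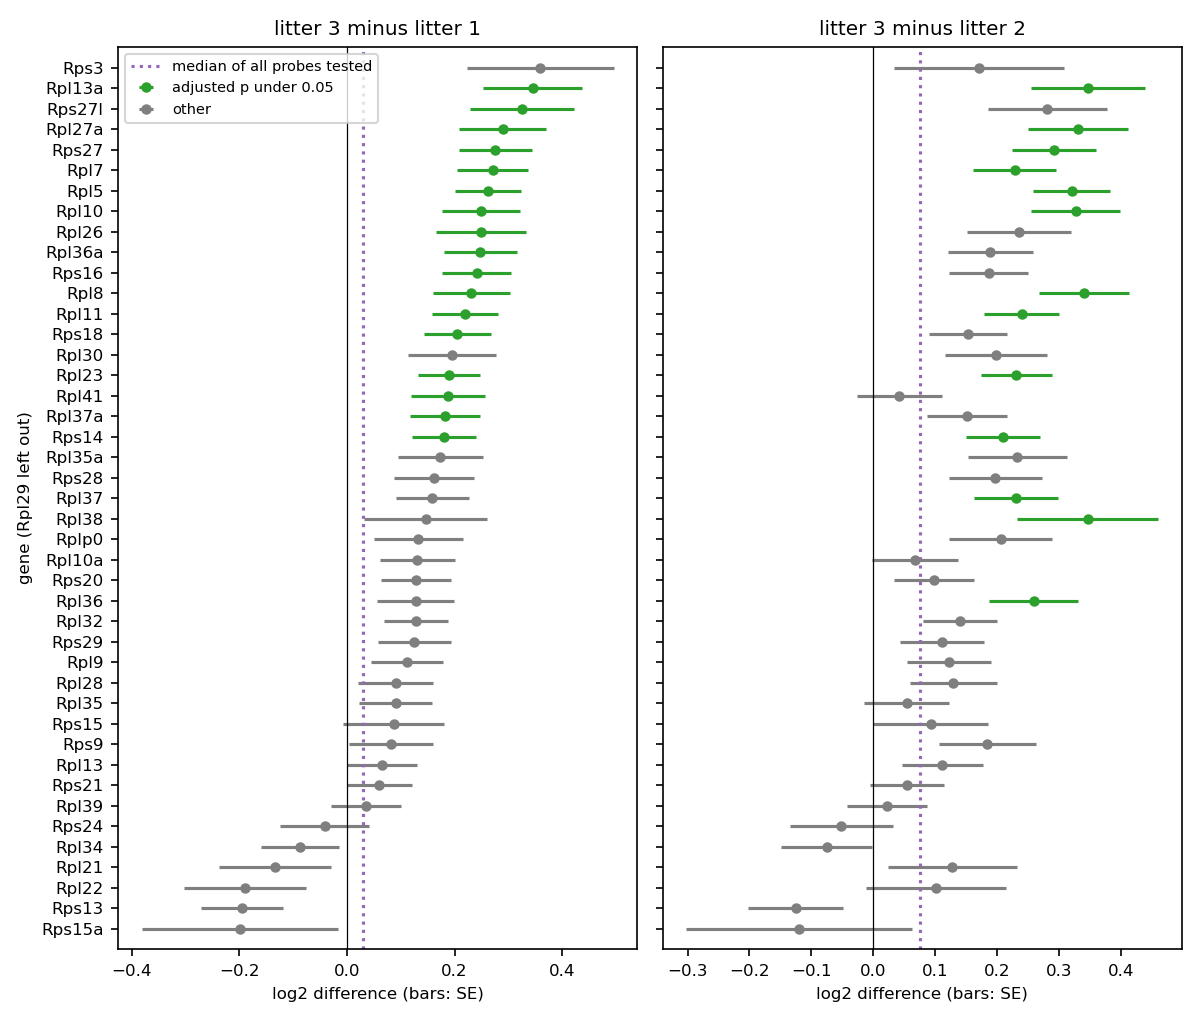
Log2 difference of litter 3 from litter 1 (left) and from litter 2 (right) for 43 genes, with SE as bars, green for an adjusted p under 0.05 and a dotted line at the median of all probes tested; Rpl29 is left out for scale. All green points lie to the right of 0, between 0.18 and 0.35 on both panels together.

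Of 13 further probes of these genes that were tested, several did not follow the brightest probe in every test. Among genes called on the brightest probe, the second probes of Rpl23 and Rpl5 also passed the F test (adjusted p = 3.6e-04 and 0.0208). That of Rpl23 differed by -0.08 between litters 3 and 1 (adjusted p = 0.528), with means of 9.44 and 9.52. That of Rpl5 differed by 0.20 (adjusted p = 0.0588). Among genes not called, a second probe passed the F test in Rps24 (0.47 higher in litter 3 than in litter 1; F test, adjusted p = 9.9e-04), in Rps3 (0.46; 6.4e-04) and in Rpl10a (0.25; 0.0264).

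Whether the family stood above all probes depended on how the arrays were scaled. With quantile normalization 8 genes (18.2%) passed the F test, 6 of them among the 18, against 34.5% of all probes. From litter 1 to litter 3 the median difference of the 44 genes was then 0.05, with 8 genes higher (18.2%, all probes 18.0%) and 3 lower, so the share of higher genes was close to that of all probes. With centring on the median of each array, 17 genes passed (38.6%, all probes 24.3%) and the median difference was 0.17. Leaving out both euploid arrays labelled cerebellum left 14 genes (31.8%, all probes 27.6%), and 3 genes (6.82%) were then higher in litter 3 than in litter 2, where 4.09% of all probes were. Leaving out single mice gave 10 to 18 genes, with 10 without euploid replicate 7, 10 without Ts1Cje replicate 7 and 11 without Ts1Cje replicate 8, all of litter 3. These are 22.7%, 22.7% and 25% of the 44 genes, near the 21.3%, 22.4% and 23.2% of all probes called without the same mice. Rpl5, Rpl7, Rpl13a and Rpl29 were called under all 30 settings that kept both genotypes. Among euploid mice alone 0 genes passed (3.64% of all probes), and among Ts1Cje mice alone 1 (10.6% of all probes).

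Markers of some other cells also differed between litters. By the F test 2 of 3 meningeal, 6 of 7 endothelial, 3 of 5 astroglial, 1 of 1 microglial and 5 of 8 precursor markers were called. It called 1 of 4 Purkinje cell, 1 of 5 interneuron, 1 of 5 oligodendrocyte and 0 of 3 red blood cell markers (28.3% of all probes). The summed linear signal of 3 of 10 meningeal markers was 1256 to 4173 in litter 1, 1184 to 4460 in litter 2 and 1148 to 10415 in litter 3, while Col1a2, Col3a1 and Foxc1 had mean log2 signals of 5.78, 5.87 and 5.52. That of 7 of 9 endothelial markers was 3126 to 4748, 2913 to 4347 and 4019 to 7755. That of 5 of 8 astroglial markers was 18747 to 21877 in litter 1, 20441 to 26659 in litter 2 and 22563 to 25579 in litter 3, without overlap between litters 1 and 3, and 4 of the 5 were called higher in litter 3 than in litter 1. That of 8 of 15 granule cell precursor markers was 25570 to 27928, 23789 to 30558 and 27533 to 32111. Singly, 3 of these 8 were called higher and 2 lower in litter 3 than in litter 1. Their median log2 difference was 0.005. In bulk tissue a change in the make-up of cells and a change of mRNA per cell cannot be told apart, and the part of these markers in the litter differences was not tested.

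Rpl29 stood apart from the other genes. It encodes a large-subunit protein that mice can lack, with reduced body growth. Its only probe gave 6.50, 6.66 and 6.54 in the 3 Ts1Cje mice of litter 1 and 6.66, 9.27 and 6.40 in the 3 euploid mice of that litter (log2 signal, replicates 1 to 3). In litter 2 it gave 9.56, 9.29 and 10.20 in Ts1Cje mice and 9.93, 9.24 and 9.96 in euploid mice. In litter 3 the signals were 10.38, 9.56 and 9.39 in Ts1Cje and 9.61, 10.18 and 9.48 in euploid mice. In litter 1, 5 of the 6 mice thus lay near the level of dim probes, and euploid replicate 2 lay within the range of the other litters. The mean of litter 2 was 2.69 ± 0.36 above that of litter 1 (SE; adjusted p = 2.45e-04) and that of litter 3 2.76 ± 0.36 above it (adjusted p = 3.7e-05), while litters 2 and 3 differed by 0.07 ± 0.36. The low mice were of both genotypes.

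Genes with the profile most like that of Rpl29 were looked for among all tested probes, ranked by Pearson's correlation over the 18 mice; this search was added after the Rpl29 values had been seen. Of the first 6 named probes, 5 were on Mmu9, as Rpl29 is, against 5.67% of the 7217 genes tested (409). They belong to Atp2c1, a calcium and manganese pump of the Golgi, Ppm1m, a protein phosphatase, Anapc13, a subunit of the anaphase-promoting complex, Abhd14a, and 6430571L13Rik. The sixth was Gins2, a replication protein gene on Mmu8. In the GRCm38.p6 annotation Abhd14a is 2 and Ppm1m 6 protein-coding genes away from Rpl29, and Anapc13, the farthest, 37.

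In Atp2c1 the same 5 mice of litter 1 gave 5.99 to 6.09, euploid replicate 2 gave 7.42, and the 12 mice of litters 2 and 3 gave 7.37 to 8.25. In Ppm1m these values were 8.59 to 8.81, 9.43 and 9.33 to 9.95, and in Anapc13 they were 9.19 to 9.62, 10.51 and 10.30 to 11.05. In all 3 genes euploid replicate 2 lay apart from its litter and inside the range of the other litters. In Abhd14a the values lay closer together, at 7.98 to 8.36, 8.58 and 8.38 to 8.95. Of 20 other genes tested between Anapc13 and 6430571L13Rik, 8 differed between litters by the F test (40%, against 28.3% of all probes), and their differences between litters 2 and 1 ran from -0.50 to 0.73.

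**Figure D4:**
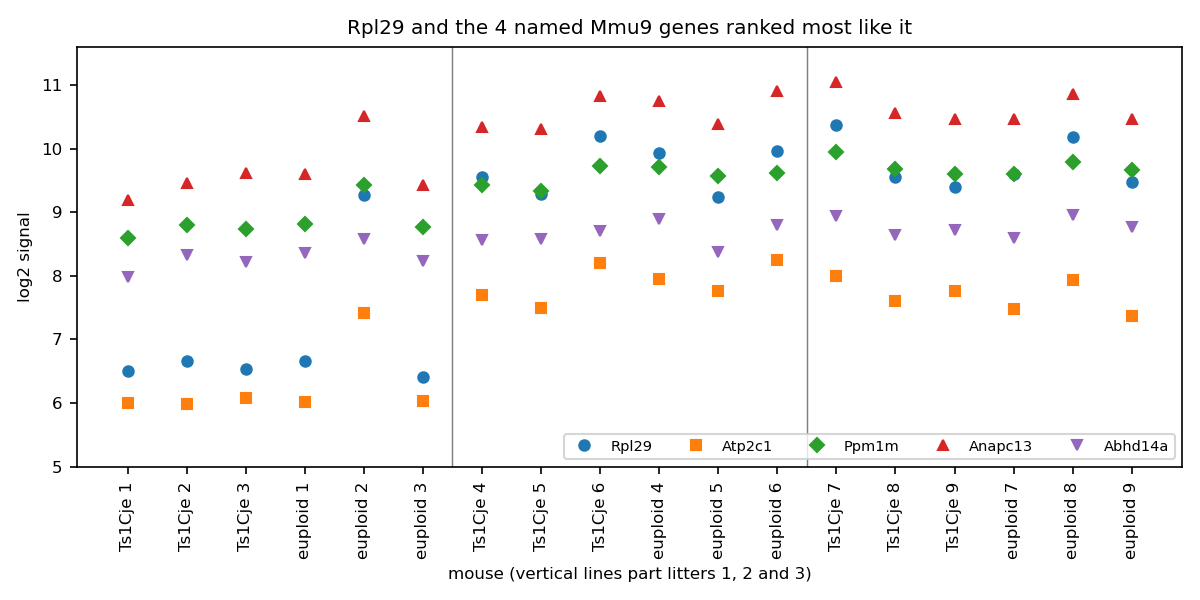
Log2 signal of Rpl29 and of Atp2c1, Ppm1m, Anapc13 and Abhd14a, all on Mmu9, in each of the 18 mice; vertical lines part the litters. In litter 1 Rpl29 lies at 6.40 to 6.66 in 5 mice and at 9.27 in euploid replicate 2, and the other genes have their highest value of that litter in the same mouse.

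No ribosomal protein gene passed the test between Ts1Cje and euploid mice. Of the 44 genes, 0 had an adjusted p under 0.05 in limma without a litter term (0.33% of all 11503 probes, 38), 0 had an unadjusted p under 0.05 (3.98% of all probes, 0.852% lower), and the smallest adjusted p was 0.997. With litter as a block 0 genes were called (0.582% of all probes) and 3 had an unadjusted p under 0.05, Rpl13a, Rpl36a and Rpl7, all lower in Ts1Cje mice (7.18% of all probes, 1.56% lower). Ratios of Ts1Cje to euploid ran from 0.866 to 1.04 in the genes other than Rpl29, with an SE of 0.05 to 0.15 on the log2 scale.

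The direction was uneven. In 35 of the 44 genes the mean was lower in Ts1Cje mice, beside 43% of all probes, and the median log2 difference was -0.06, beside 0.02 for all probes. The genes were correlated with one another, so their directions are not independent. The median of the 44 genes was 12.82 to 13.18 in Ts1Cje and 12.91 to 13.34 in euploid mice, and the ranges overlapped. The difference was not the same in every litter: its median was -0.15 in litter 1 (38 genes lower, all probes 61.6% lower), 0.03 in litter 2 (13 lower, all probes 29.2%) and -0.06 in litter 3 (32 lower, all probes 49.5%). In 10 genes it was under 0 in all 3 litters. Markers of some other cells were higher in Ts1Cje mice on average, with median log2 differences of 0.97 for 3 of 10 meningeal, 0.38 for 7 of 9 endothelial and 0.20 for 5 of 8 astroglial markers. Those of Purkinje cells (4 of 8) and interneurons (5 of 6) had medians of -0.02 and -0.01. Red blood cell (3 of 12), oligodendrocyte (5 of 7) and granule cell precursor markers (8 of 15) had medians of 0.22, 0.12 and 0.05. The only microglial marker tested, of 8 listed, differed by 0.17. None of them was called without a litter term, and 1 endothelial and 1 astroglial gene were called with litter as a block. The summed meningeal signal was 1448 to 10415 in Ts1Cje (median 4173) and 1148 to 4764 in euploid mice (median 1565), and the part of these markers in the genotype differences was not tested. By limma's test of genotype by litter 0 genes were called (5 of all probes, 0.0435%), and 2, Rpl38 and Rpl26, were under 0.05 without adjustment (7.92% of all probes). The difference of Rpl38 was -0.38 in litter 1, 0.04 in litter 2 and 0.21 in litter 3.

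**Figure D5:**
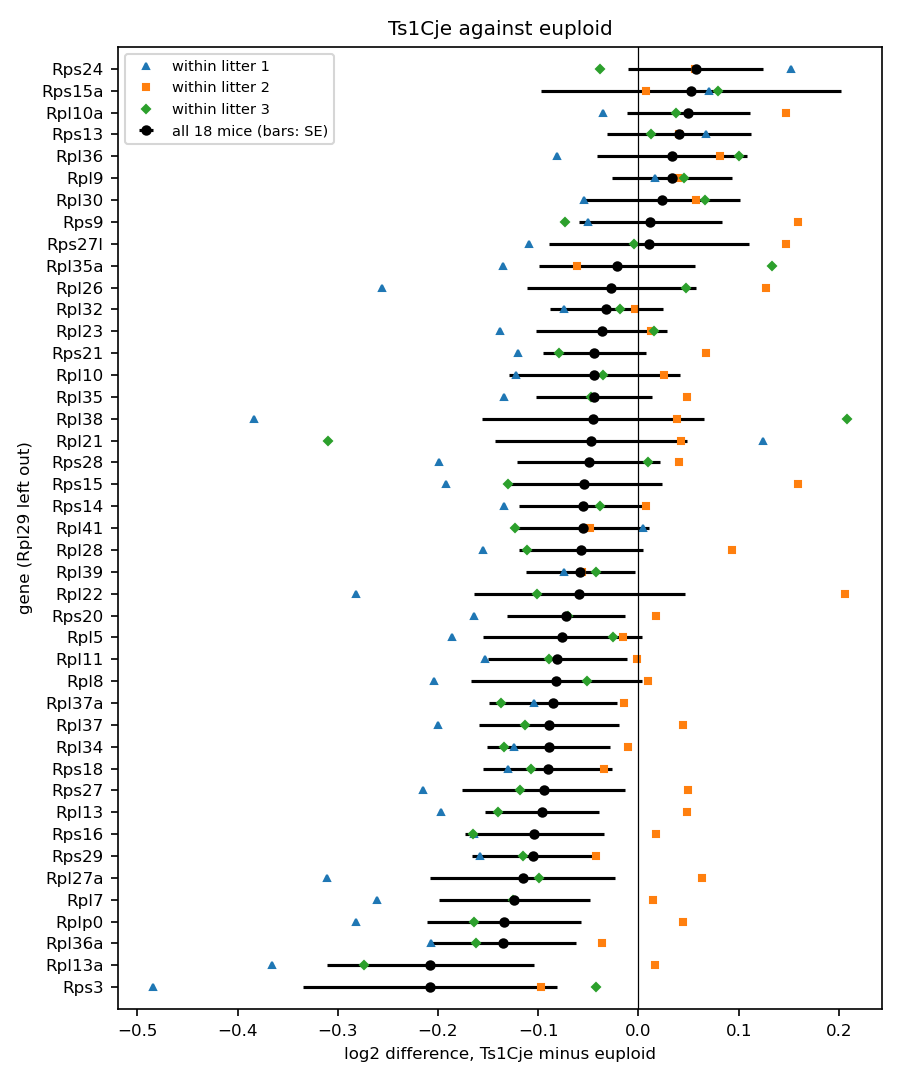
Log2 difference of Ts1Cje from euploid mice for 43 genes, over all 18 mice (black, SE as bars) and within litters 1 (triangles), 2 (squares) and 3 (diamonds); Rpl29 is left out for scale. In most genes the litter 1 value lies farthest to the left, with a median of -0.15, and the litter 2 values scatter around 0.03.

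The 8 genes with the smallest p were Rpl13a, Rpl36a, Rplp0, Rps29, Rpl13, Rps3, Rpl7 and Rps16, all lower in the mean of Ts1Cje mice and none called. Rpl13a gave 10.70, 11.08 and 11.42 as the lowest, middle and highest value of Ts1Cje mice and 11.00, 11.22 and 11.70 of euploid mice, a difference of -0.21 ± 0.10 (SE; limma, adjusted p = 0.997). Its difference was -0.37 in litter 1, 0.02 in litter 2 and -0.27 in litter 3. The groups overlapped over most of their range. Its second probe gave -0.23 ± 0.10, under 0.05 without adjustment and with an adjusted p of 0.997, as did 1 further probe of Rpl21 (-0.18 ± 0.08). Rps3, a small-subunit protein with a known role in DNA repair, differed by -0.21 ± 0.13, most of it in litter 1 (-0.48). The second probe of Rps3 did not show this difference (-0.01 ± 0.12).

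Rplp0, the base of the ribosomal stalk and a common reference gene in PCR, differed by -0.13 ± 0.08, with -0.28, 0.04 and -0.16 in litters 1 to 3. Its signal was 8.71 in Ts1Cje replicate 1 and 9.02 to 9.22 in the other 8 Ts1Cje mice. Rps29 lies on Mmu12 but is not among the genes that the paper lists in the deleted segment. It differed by -0.11 ± 0.06, under 0 in all 3 litters, with an adjusted p of 0.997. On Mmu16, Rpl35a lies outside the three-copy segment and differed by -0.02 ± 0.08, with 11.84 ± 0.12 in euploid and 11.82 ± 0.20 in Ts1Cje mice (SD, n = 9 each).

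No setting gave an adjusted call. Quantile normalization gave 5 genes with an unadjusted p under 0.05, all lower (11.4%, against 4.31% of all probes lower), and turned the split of all probes at that p from 360 higher and 98 lower to 292 higher and 496 lower. Without litter 1 the median difference was -0.01 beside 0.04 for all probes, and without litter 2 -0.11 beside -0.02, so the 44 genes lay 0.05 and 0.09 under all probes, where they lay 0.07 under them with all litters.

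Genes of the translation machinery outside the family were set beside it. The number of adjusted calls between genotypes was 0 of 32 initiation factors, 0 of 12 elongation and release factors, 0 of 52 ribosome assembly factors, 0 of 26 subunits and factors of RNA polymerases I and III, 0 of 11 regulators of TOP mRNAs and 0 of 6 genes of the Trp53 response to free ribosomal proteins. Between litters, the F test called 7 initiation factors (21.9%), 5 elongation and release factors (41.7%), 14 assembly factors (26.9%), 3 polymerase genes (11.5%), 1 TOP regulator (9.09%) and 1 gene of the Trp53 list (16.7%), beside 28.3% of all probes.

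In litter 3 against litter 1, 7 of 32 initiation factors were higher and 0 lower (all probes, 15.4% and 12%). Their median difference was 0.13. Of 52 assembly factors 9 were higher and 1 lower, and of 12 elongation and release factors 3 and 1. Of 26 polymerase genes 2 were higher and 0 lower. For the 11 TOP regulators these counts were 0 and 2, and for the 6 genes of the Trp53 list 1 and 0. Eif3h, a subunit of the scaffold that loads the small subunit, was 0.48 higher (adjusted p = 3.0e-04). Eef1b2, an exchange factor of the elongation cycle, was 0.28 ± 0.08 higher in litter 3 than in litter 1 (SE; adjusted p = 0.0102), close to the ribosomal proteins in size. Eef2k, the kinase that slows elongation, was lower in litter 3 (-0.66, adjusted p = 0.00114). Tsc1, which restrains mTOR signalling, was lower too (-0.63). Nmd3, the export adaptor of the large subunit, differed by -0.94, while the assembly factors Sbds and Nop10 were 0.37 and 0.32 higher, each with an adjusted p under 0.05.

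Between genotypes, the values nearest to a call in these lists were those of Ccng1, a Trp53 target (0.15 ± 0.06 higher in Ts1Cje mice, SE; adjusted p = 0.951), and Mycl, a Myc family gene (-0.22 ± 0.10, adjusted p = 0.997). Next by p were Rps6ka3 (0.17 ± 0.08), Eif2b3 (-0.12 ± 0.06), Eif4g2 (0.19 ± 0.10), Eef1e1 (-0.13 ± 0.07) and Eif5 (0.15 ± 0.08). Farther from a call, Fbl, the methyltransferase of nucleolar RNA, differed by -0.16 ± 0.09. Ubtf, a factor of RNA polymerase I, differed by -0.12 ± 0.07. All of these had an adjusted p of 0.997, and they pointed in both directions.

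Rps3a1, whose symbol falls outside the rule, had a mean log2 signal of 10.65, differed by 0.03 ± 0.14 between genotypes and differed between litters (F test, adjusted p = 0.0156), with litter 3 at -0.05 from litter 1. Fau, which encodes a small-subunit protein fused to a ubiquitin-like one, had a signal of 13.35 and was 0.13 ± 0.07 higher in litter 3 than in litter 1 (adjusted p = 0.187). Rpl7l1, a paralogue of Rpl7, was 0.30 ± 0.08 higher (adjusted p = 0.0124).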

How the data were processed

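EGL RNA of 18 newborn mice was amplified, labelled and hybridized by the authors, who averaged the beads of each probe, scaled the arrays to a common mean and deposited the signals as log2 values; the software version is not given in the sources used here. The deposited log2 signals were used without further scaling. Symbols came from the array annotation, updated through Entrez identifiers (29921 of 29976 probes with 1 symbol matched). Probes with a mean of 7.1 or more (11503 of 46632) were tested, and each gene was read from its brightest probe. Tests were two-sided limma 3.58.1 fits in R 4.3.3 (lmFit, eBayes), checked on simulated data, with Benjamini-Hochberg adjustment over all tested probes at 0.05: genotype without a litter term, 3 litters with a genotype term, and their interaction. Each array is 1 mouse, and p-values cover the spread between single mice. The number of arrays limits precision.

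Genes named singly were the 5 brightest and 5 dimmest, the 8 with the smallest p for litter and for genotype, those on Mmu16 and Mmu12, paralogues, genes with known mutants or use as standards, and up to 3 per list and test; other genes called were named after their values were seen. The genes and lists were chosen with earlier results of these data known. Alternatives covered scaling, background, filters, probes, arrays and litters. Promoter sequences came from RefSeq (GRCm38.p6); motifs were searched on both strands in 300 bases. Figures used matplotlib 3.10.9. Whole-cerebellum arrays were not analysed here.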

Additional observations from a re-analysis of the deposited data

Results flagged for a closer look

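In 115 groups of mice (23 genes in 2 genotypes and 3 litters), 3 values stood far from the rest of their group. Chance alone marks about 1 group in 20, and 3 of 115 is not above that rate. The rate is approximate, because the groups share mice and part of the genes were chosen by their values in these data. Rpl29 in litter 1 had 9.27 in euploid replicate 2 and 6.40 to 6.66 in the other 5 mice. Rplp0 in Ts1Cje mice had 8.71 in replicate 1, against 9.02 to 9.22 in the others; that mouse also had the lowest mean signal of the 44 genes, 12.21. Rps29 in euploid mice had 14.97 in replicate 7 of litter 3, against 14.53 to 14.72 in the others, and that mouse had the highest median of the 44 genes, 13.34.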

How the results depend on the processing

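No setting gave an adjusted call of a ribosomal protein gene between genotypes or for genotype by litter. Of the 44 genes, the number with an unadjusted p under 0.05 between genotypes, 0 as reported, was as follows, all lower in Ts1Cje mice and set beside the percent of all probes lower at that p: 3 with litter as a block (1.56%), 5 with quantile normalization (4.31%), 1 with the average of a gene's probes (1.05%), 3 without the euploid arrays labelled cerebellum (1.54%), 8 without the 2 euploid arrays of smallest SD (3.49%), 3 without litter 2 (1.97%) and 6 with array SD as a covariate (3.74%). In fits chosen after seeing the data, each with litter as a block, it was 7 with quantile normalization (6.69%), 1 with median centring (0.965%) and 2 with Ts1Cje replicate 1 left out (1.06%). Leaving out single mice gave 0 to 2. Of all probes, 38 were called between genotypes. This became 67 with litter as a block, 74 with quantile normalization besides and 95 without Ts1Cje replicate 1 besides, 21 without the 2 euploid arrays of smallest SD, and 19, 10 and 17 without litters 1, 2 and 3. For the litters, 8 genes passed with quantile normalization, 0 in euploid mice alone and 1 in Ts1Cje mice alone, and leaving out single mice gave 10 to 18: 10 without euploid replicate 7, 10 without Ts1Cje replicate 7 and 11 without Ts1Cje replicate 8. All probes called were 4953 without a filter, 2169 among the 8000 brightest, 419 in euploid and 1217 in Ts1Cje mice alone (3260 as reported). The median difference of litters 3 and 2 was 0.034 with quantile normalization. For genotype by litter, the average of a gene's probes gave 3 probes in place of 5, and leaving out single mice 3 to 8. The median of the genes' mean signals was 12.83 with the average of a gene's probes, which kept 3 of the 5 brightest genes. Where a count changed, the cause was not tested. Mice of the 2 genotypes carry no shared number in the labels. Only the litter links them, so no paired analysis was possible. Litter was used as the block in alternative fits, and the genotype test as reported had no litter term. The log2 signals give no bead counts, and dim probes lie near the array's background.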
